A study of Drosophila melanogaster with 2 samples.

Results

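The proteasome subunit genes described here are the protein-coding Drosophila melanogaster genes whose symbols start with Rpn, Rpt, Prosalpha or Prosbeta. The rule found 48 genes among the 13968 protein-coding genes on the main chromosome arms. By symbol, 25 encode subunits of the core particle and 23 subunits of the regulatory particle. A number followed by R or T in the symbol marks a paralog, and 16 of the 48 genes are of that kind, which left 32 genes called canonical here. The measurement was chromatin immunoprecipitation followed by sequencing (ChIP-seq) with an antibody to GFP. It was done on whole embryos aged 0 to 24 h of the strain rib-GFP, which carries an insertion that targets rib and makes a rib-eGFP fusion protein. There was 1 group of 2 biological replicates, with no group without the fusion among the samples, so binding at a gene can be set only against binding at other genes. The field for the antibody in the labels names rib, whereas their text gives anti-GFP, and whether the fusion protein replaces all rib function is not stated. A whole embryo pools many tissues and stages, so a peak present in few cells and one that is weak in many cells cannot be told apart. The labels do not say how many animals a replicate pooled.

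The proteasome is the protease complex that degrades ubiquitin-tagged proteins. Its core particle is a barrel of stacked rings of alpha (Prosalpha) and beta (Prosbeta) subunits, with the proteolytic sites on beta subunits. Its regulatory particle has a base, with a ring of Rpt ATPases that unfold substrates, and a lid of Rpn subunits. Proteasome genes are known to rise together when the complex is impaired, through Nrf1 in mammals, whose Drosophila relative is encoded by cnc. In Drosophila several core and regulatory subunits have paralogs that are known for expression in the male germ line. The fusion partner rib (ribbon) is a BTB-domain nuclear protein that the embryo needs to shape its tracheae and salivary glands.

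A gene was counted as bound when at least 1 of its transcription start sites (TSSs) had a peak summit no more than 500 bp away, in the authors' deposited list of 4606 peaks called from both replicates together. These peaks had passed a threshold of 0.01 on the irreproducible discovery rate (IDR), a measure of how well a peak's rank repeats between sets of data. Each replicate's own ranked list also holds IDR values, so the IDR there does not compare the replicates with each other. A joint call is therefore not read here as a peak that repeated in both replicates. Of the 48 proteasome subunit genes, 9 were bound, or 18.8% (exact 95% interval 8.95% to 32.6%). Of all protein-coding genes 18.2% were bound, so the share among proteasome subunit genes was close to the background. The 9 bound genes were all canonical, 9 of 32 or 28.1% (13.7% to 46.7%), and 0 of the 16 paralogs were bound, which allows a share of up to 20.6% by the upper end of the exact interval. The interval of the canonical genes holds the background share. These intervals cover the counting of genes only.

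In the joint list the core and regulatory particles had like shares of bound genes. Among the canonical genes, 4 of 14 core genes (28.6%, 8.39% to 58.1%) and 5 of 18 regulatory genes (27.8%, 9.69% to 53.5%) were bound. With the paralogs included the shares were 16.0% of 25 core genes and 21.7% of 23 regulatory genes. With the authors' conservative list of 3959 peaks, also called on both replicates, the shares were 2 of 25 (8.00%) and 4 of 23 (17.4%). By family, bound were 2 of 7 Prosalpha genes, 2 of 7 Prosbeta genes, 5 of 12 Rpn genes (41.7%, 15.2% to 72.3%) and 0 of 6 Rpt genes (up to 45.9%), beside 18.2% of all genes. The intervals of these small families overlap, and no family is set apart from another by its count.

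The upstream sequences of 5 of the genes are shown because they hold the clearest features of proteasome gene starts in these data, a DNA replication-related element (DRE, TATCGATA) or, in Rpn3, a repeated stretch. DREs are a core promoter element of many Drosophila genes with housekeeping functions. Rpn3, Prosbeta2 and Rpn12 are bound genes, and Prosalpha6 and Prosbeta6 hold a DRE without a called peak. Rpn3 also has a DRE, at -197 bp from the TSS, upstream of the stretch printed for it. The stretches end at the base before the canonical TSS and are at most 250 bp long, shorter where an annotated exon lies upstream. They are in the gene's own direction, from the Release 6 assembly of RefSeq (dm6), and capitals mark matches to the searched motifs on either strand. They are Rpn3 (chr2L:19051613-19051789, plus strand), Prosbeta2 (chr3L:14999701-14999950, plus strand), Rpn12 (chr3L:16582778-16583027, plus strand), Prosalpha6 (chr2L:10221217-10221350, plus strand) and Prosbeta6 (chr3L:16610419-16610661, minus strand).
Rpn3: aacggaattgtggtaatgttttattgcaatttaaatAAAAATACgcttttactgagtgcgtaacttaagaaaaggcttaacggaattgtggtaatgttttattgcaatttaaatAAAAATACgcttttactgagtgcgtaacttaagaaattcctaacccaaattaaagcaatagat
Prosbeta2: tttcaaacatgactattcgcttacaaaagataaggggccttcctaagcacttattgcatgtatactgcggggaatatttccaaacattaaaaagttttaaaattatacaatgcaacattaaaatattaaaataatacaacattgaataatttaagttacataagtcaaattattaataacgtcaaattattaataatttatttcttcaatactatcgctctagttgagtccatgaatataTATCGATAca
Rpn12: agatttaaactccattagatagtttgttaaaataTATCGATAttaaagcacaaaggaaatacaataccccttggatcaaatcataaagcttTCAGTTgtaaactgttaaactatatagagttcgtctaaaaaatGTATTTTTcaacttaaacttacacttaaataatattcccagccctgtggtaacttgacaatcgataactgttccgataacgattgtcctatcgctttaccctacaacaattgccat
Prosalpha6: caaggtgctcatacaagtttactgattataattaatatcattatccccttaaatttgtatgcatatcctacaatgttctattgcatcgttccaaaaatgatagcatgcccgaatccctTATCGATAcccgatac
Prosbeta6: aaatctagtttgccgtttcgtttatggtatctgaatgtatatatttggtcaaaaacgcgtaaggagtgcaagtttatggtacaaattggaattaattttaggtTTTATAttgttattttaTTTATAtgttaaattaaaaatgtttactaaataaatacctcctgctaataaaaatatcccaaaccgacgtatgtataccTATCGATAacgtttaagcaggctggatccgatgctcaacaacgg
In Rpn3 the capitals mark the core of motif 6 (GTATNTTT), read on the opposite strand, at -141 and -63 bp from the TSS. Within the printed stretch this core occurs in both copies of an exact 72-bp repeat whose copies start 78 bp apart. The first copy begins at the first printed base, so the repeat may be longer than the stretch shows. An exact repeat of at least 30 bp occurred in the 300-bp promoters of 44 of the 13968 genes (0.315%), and Rpn3 was the 1 proteasome subunit gene among them. In Prosbeta2, Prosalpha6 and Prosbeta6 the DRE starts at -10, -16 and -44 bp, and the last also holds a TATA box (TATAAA) on the opposite strand at -140 and -123 bp. In Rpn12 the capitals mark a DRE at -216 bp, an initiator (TCAGTT) at -159 bp and a motif 6 core at -116 bp.

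The bound regulatory genes encode Rpn3, Rpn5, Rpn6, Rpn11 and Rpn12, all subunits of the lid. The lid genes Rpn7, Rpn8, Rpn9 and, outside the symbol rule, Sem1 were not bound. A difference between lid and base was not tested. Signal below is the peak caller's own value, comparable within a list but not between lists, and no depth was given with it. The replicates' signals are those of the highest region with its summit within 500 bp of a TSS in each replicate's ranked list, which also holds regions that did not pass the threshold. Rpn3 (chr2L:19051790-19053681) had the highest peak of all proteasome subunit genes, with a joint signal of 115, above 67.4% of the 4606 peaks. Its signal was 62.7 in replicate 1 and 53.2 in replicate 2, above 90.3% and 92.1% of protein-coding genes, with both replicate summits at the same base. The joint summit lay 14 bp inside the gene, in the 5′ UTR, and 192 bp from the start of l(2)37Bb on the opposite strand. Rpn3 was the 1 bound gene above 90% of genes in both replicates, although replicate 2 alone gave it an IDR of 0.0849.

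Rpn6 had nearly the same joint signal, 115, but its replicates differed most among the 9 genes, at 93.2% and 59.6% of genes. Replicate 1 had 75.7 there, with an IDR of 0.000912, and replicate 2 had 19.3, with an IDR of 0.473. The replicate 2 summit was 542 bp from that of replicate 1, at the canonical start of the gene, and its region did not overlap the joint peak. The joint summit (2R, 14752395) lay in an intron, 124 bp upstream of an internal TSS of Rpn6 and 126 bp from the start of ave. At Rpn6 replicate 1 alone had a ranked region that overlaps the joint peak.

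Rpn12, Rpn11 and Rpn5 had weaker peaks. At Rpn12 (chr3L:16583028-16584022) the joint signal was 72.0, and the replicates had 42.9 and 36.6, above 80.3% and 84.9% of genes. Its summit was 73 bp upstream of the TSS with no other gene's TSS within 500 bp, and the joint peak covers the whole upstream stretch printed above. Rpn11 (chr2L:5058404-5059790), the deubiquitinase of the lid, had 63.3 in the joint list, 31.1 in replicate 1 and 27.4 in replicate 2. Its summit was the farthest of the 9 from a TSS, 284 bp downstream in a coding exon, and the replicate summits lay at 423 and 400 bp. Rpn5 (chr3R:5789493-5791569) had the weakest peak, 58.1, at a joint IDR of 0.00780, with 23.6 in replicate 1 and 30.0 in replicate 2. Its summit was 153 bp upstream of Rpn5 and 44 bp from the start of Hat1, so the nearer gene is not the proteasome gene.

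The bound core genes encode 2 alpha and 2 beta subunits. Prosbeta5 (2R), which carries the chymotrypsin-like site, had a joint signal of 104, above 59.8% of peaks, with the summit 7 bp upstream of the start. Replicate 1 had 80.5, the highest value of any proteasome subunit gene in that list, and replicate 2 had 24.5, above 94.1% and 70.8% of genes, and the replicate summits were 2 bp apart. The IDR was 0.000989 in replicate 1 and 0.516 in replicate 2. As at Rpn6, the signal was high in replicate 1 and ordinary in replicate 2, but here at the same place. The start of dgo is 87 bp from the joint summit.

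At Prosbeta2 (chr3L:14999951-15001319), which carries the trypsin-like site, the joint signal was 76.1 and the replicates had 44.6 and 34.8, above 81.7% and 83.7% of genes. The summit lay 153 bp upstream of its TSS and 132 bp from the start of mRpL39, a mitochondrial ribosomal protein gene, which is the nearer start. The replicate summits were 10 bp apart. Prosalpha7 (2R) had a joint signal of 84.5 with the summit 6 bp upstream of the start, and it had 41.5 in replicate 1 and 39.4 in replicate 2. The start of CG1671 is 219 bp from the summit. At Prosalpha3 (2R), a subunit of the gate of the core in yeast, the joint signal was 74.2, with 51.4 in replicate 1 and 27.6 in replicate 2. Its joint summit was 102 bp downstream of the TSS in an intron, between replicate summits that were 252 bp apart.

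**Figure D1:**
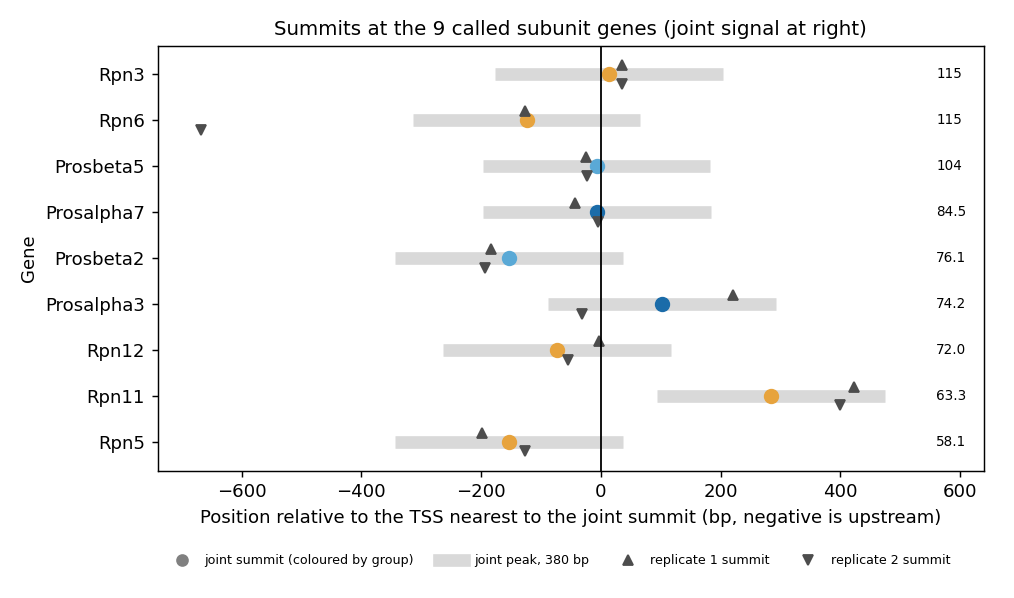
Summit positions at the 9 bound proteasome subunit genes in bp from the TSS nearest to the joint summit (horizontal axis, negative is upstream), one gene per row, with the joint peak as a bar of 380 bp, the replicate summits as triangles and the joint signal at the right. The replicate summits lie within 100 bp of each other at 7 genes and stand 252 bp apart at Prosalpha3 and 542 bp apart at Rpn6.

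In the joint list the peaks at proteasome subunit genes were weak among the peaks at genes. The median joint signal of the 9 bound genes was 76.1 (58.1 to 115), against 106 over all 2547 bound protein-coding genes. In percentiles of the 4606 peaks the medians were 26.3 and 61.4. In the list of replicate 1 alone the medians were 60.8 for the 3 proteasome subunit genes called there and 60.2 for all genes called. Those 3 genes, Rpn3, Rpn6 and Prosbeta5, stood at 67.4, 67.0 and 59.8 in the joint list. The medians of the 2 lists thus cover different subunit genes, and the value of replicate 1 does not bear on the gap. Among the 9 genes, 3 had a signal above the median of the 4606 peaks, 93.2, namely Rpn3, Rpn6 and Prosbeta5. These are also the 3 that replicate 1 alone called. Each of the 9 genes had 1 summit. In position they were like bound genes in general. Upstream summits made up 6 of 9 (66.7%) against 69.2% of all bound genes, and summits within 200 bp of the TSS 8 of 9 (88.9%) against 76.1%. The median distance was 102 bp against 106 bp.

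Each replicate's own list held a smaller share of proteasome subunit genes than of all genes. Replicate 1 alone called 3 of 48 genes (6.25%, exact interval 1.31% to 17.2%), against 13.0% of all genes, which that interval holds. Replicate 2 alone called 0 of 48 (up to 7.40%), against 10.7% of all genes, which lies above that interval. For the 32 canonical genes without the paralogs, the count of 0 has an interval up to 10.9%, which holds the 10.7%. No proteasome subunit gene was in both replicates' lists, which held 8.00% of all genes in common. Each of these lists was thresholded within 1 replicate, so this count does not say whether a peak repeated. The conservative list, called on both replicates, held 6 of the 48 genes (12.5%), against 16.5% of all genes. At 6 of the 9 bound genes the peak passed in the joint list and in neither replicate's own list. Across the 9 bound genes the replicate 1 signal was above 54.9% to 94.1% of genes (median 81.7%) and the replicate 2 signal above 59.6% to 92.1% (median 78.6%). The percentile was higher in replicate 1 at Rpn6, Prosbeta5 and Prosalpha3 and higher in replicate 2 at the other 6 genes. Over the 29 canonical genes with a region in both ranked lists, Spearman's rho between the replicates' signals was 0.50 and Pearson's r of log2 signal 0.56. Over all 9227 such protein-coding genes they were 0.71 and 0.74. The highest region was taken in each replicate separately, so a pair need not be the same region. At Rpt3, for example, the paired summits were 662 bp apart. These correlations are across genes of the same libraries, genes are not independent replicates, and no test was made of them.

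**Figure D2:**
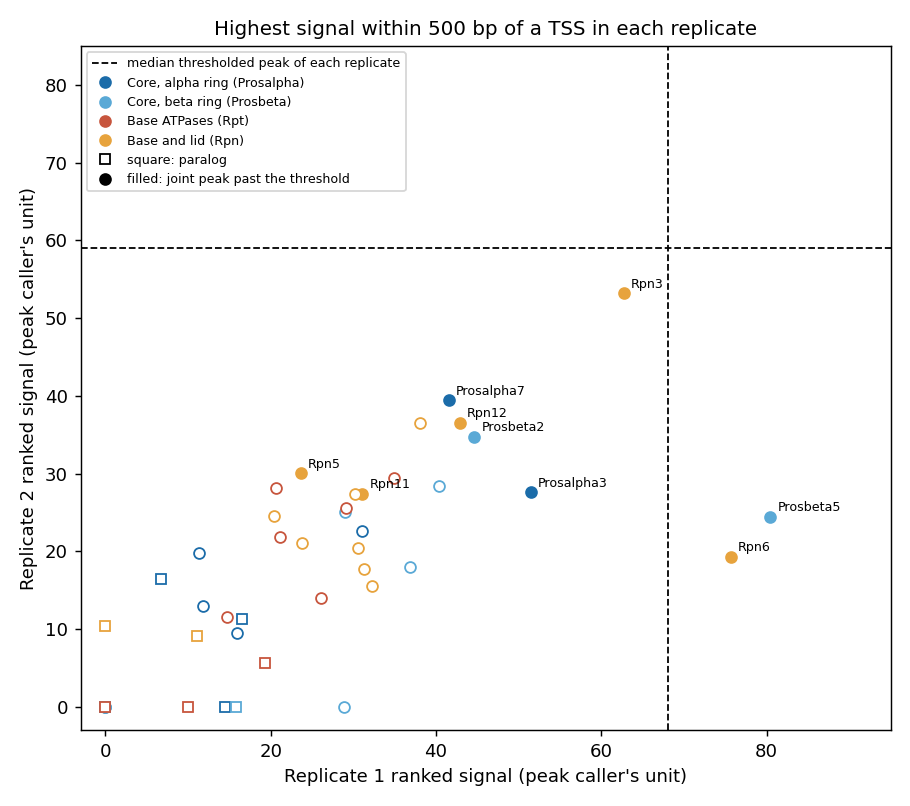
Highest ranked signal within 500 bp of a TSS in replicate 1 (horizontal axis) and replicate 2 (vertical axis), in the peak caller's unit and 0 where no region was ranked, with one point per proteasome subunit gene, squares for paralogs, filled points for genes in the joint list and dashed lines at the median thresholded peak of each replicate (68.0 and 59.0). Prosbeta5 and Rpn6 lie far to the right with replicate 2 values of 24.5 and 19.3, and no gene lies above both lines.

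Among the 39 genes without a joint peak, the 3 with the highest joint ranked signal were Rpn13, Prosbeta1 and Prosbeta6. Rpn13 (2R), a ubiquitin receptor of the base, had 92.0 at 64 bp upstream of its TSS, with 38.0 in replicate 1 and 36.5 in replicate 2. That signal is above those of 6 of the 9 bound genes, but its joint IDR of 0.0147 missed the threshold, and it was in the conservative list. Prosbeta1 (2R), which carries the caspase-like site, had 70.4 at an IDR of 0.0118, with 40.4 and 28.4 in the replicates. Prosbeta6 had 68.3 at an IDR of 0.0278, with 29.0 and 25.0 in the replicates, and a summit 185 bp inside the gene. Rpt5, the highest of the Rpt ATPases, followed with 66.3 at an IDR of 0.0215 and replicate values of 34.9 and 29.5. At these genes the values overlap those of the weaker bound genes, and the threshold divides a continuous range of signal.

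None of the 6 Rpt genes had a called peak, a count whose interval reaches 45.9% and holds the background of 18.2%. All 6 had a ranked region near a TSS, with joint signals from 20.9 at Rpt3 to 66.3 at Rpt5 and a median of 37.6. Rpt1 had 47.7, Rpt4 39.0, Rpt6 36.1 and Rpt2 32.2. The nearest thresholded summit to an Rpt gene was 3421 bp away, at Rpt6, and the nearest to Rpt3 was 188256 bp away. Against all genes the Rpt signals were in the middle, with a median percentile of 54.3.

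Among the Rpn genes without a called peak, those after Rpn13 were Rpn8 (50.3), Rpn10 (49.9), Rpn9 (46.1), Rpn7 (43.3), Rpn2 (41.4) and Rpn1 (39.0) in joint ranked signal. Rpn10 is a ubiquitin receptor, Rpn1 and Rpn2 are the scaffold subunits of the base, and Rpn7, Rpn8 and Rpn9 belong to the lid. The 7 Rpn genes without a peak thus spanned 39.0 to 92.0. Of the Prosbeta genes, Prosbeta3 had 58.2 at an IDR of 0.0139, Prosbeta7 38.4 and Prosbeta4 22.0. Of the Prosalpha genes, Prosalpha2 had 45.8, Prosalpha4 23.7, Prosalpha5 23.6 and Prosalpha6 19.4. The median gene percentile in the joint ranked list was 37.2 for the Prosalpha genes, 79.4 for the Prosbeta genes and 70.6 for the Rpn genes. In that order the medians were 39.8, 74.8 and 67.6 in replicate 1. In replicate 2 they were 61.0, 70.8 and 73.2, so the families lay closer together there. Prosalpha1, which has no region, enters each Prosalpha median as 0. Without it the joint median of the other 6 Prosalpha genes was 50.4, beside 54.3 for the Rpt genes.

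Prosalpha1 was the 1 canonical gene with no region in any list. Its start lies in sequence that the assembly holds more than once. Of the 31-bp words within 500 bp of the canonical TSS of Prosalpha1, 0% occurred once in the assembly, and the same value of 0% was found for its paralog Prosalpha1R on the same arm. All other proteasome subunit genes had at least 89.3%, the value of Rpn3, and the median was 100% for canonical genes, for paralogs and for all protein-coding genes. Under 90% lay 2 of 32 canonical genes, 1 of 16 paralogs and 4.37% of all genes. How the authors treated reads that match more than one place is not given in the sources used here, so the absence of a region at Prosalpha1 and Prosalpha1R is not a measurement of low binding.

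**Figure D3:**
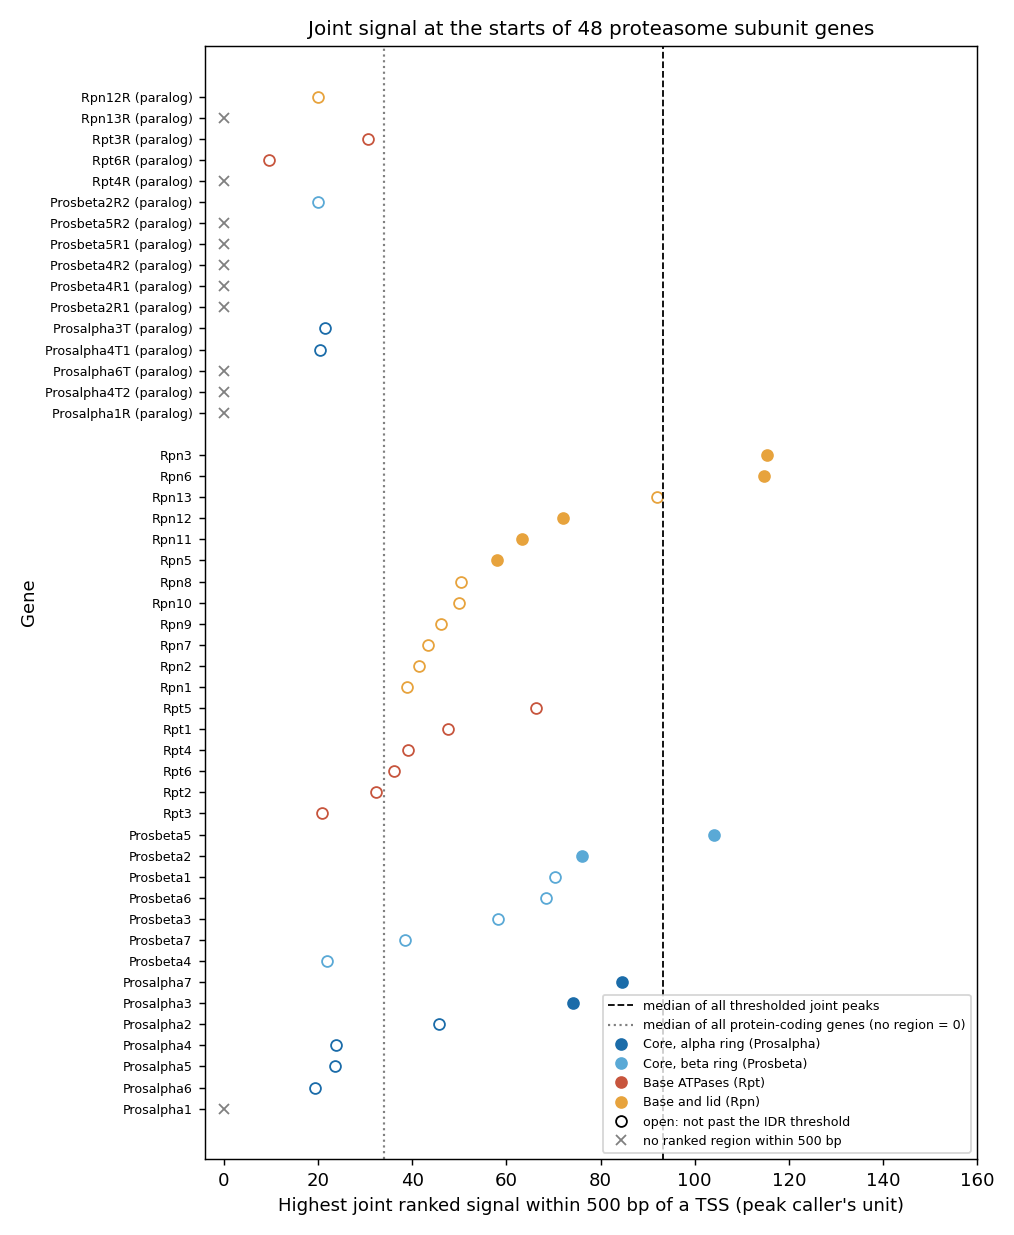
Highest joint ranked signal within 500 bp of a TSS (horizontal axis, peak caller's unit) for each of the 48 proteasome subunit genes, coloured by family, filled where the gene has a thresholded peak and crossed where it has no ranked region. The dotted line is the median over all protein-coding genes (34.1) and the dashed line the median thresholded peak (93.2), which Rpn3, Rpn6 and Prosbeta5 exceed. All 16 paralogs lie to the left of the dotted line, among them Prosalpha1R, whose start is not unique in the assembly.

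In the ranked lists the canonical genes as a group, the 9 bound ones included, were ranked above the typical gene. A region was ranked within 500 bp of a TSS for 31 of 32 canonical genes (96.9%), against 75.9% of all protein-coding genes. The median joint ranked signal was 48.8 against 34.1 over all genes, counting a gene with no region as 0. For the 23 canonical genes that were not bound, the median was 42.3 over the 22 with a region. At or above the median gene were 25 of 32 canonical genes in the joint list and 24 of 32 in each replicate's list. In replicate 1 the medians were 30.4 and 21.1, and in replicate 2 they were 23.5 and 15.8. The canonical genes thus lay on the same side in both replicates, while few of them reached the threshold in either. Ranked lists hold 96362 to 107505 regions, so a ranked region by itself is a low bar.

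The paralogs stood on the other side. In the joint list 6 of 16 had a ranked region (37.5%), and their signals ran from 9.53 to 30.7. These were Rpt3R with 30.7, Prosalpha3T with 21.5, Prosalpha4T1 with 20.5, Rpn12R with 20.0, Prosbeta2R2 with 19.9 and Rpt6R with 9.53. The genes Prosalpha1R, Prosalpha4T2, Prosalpha6T, Prosbeta2R1, Prosbeta4R1, Prosbeta4R2, Prosbeta5R1, Prosbeta5R2, Rpt4R and Rpn13R had none. At or above the median of all genes were 0 of 16 paralogs in the joint list, 0 in replicate 1 and 1 in replicate 2. The median distance from a paralog to the nearest thresholded summit was 43831 bp, against 3410 bp for canonical genes and 8065 bp over all genes. Leaving aside Prosalpha1R, whose start is not unique in the assembly, the paralogs were thus below the median gene in the joint list, whether the canonical namesake was bound, as for Rpn12R and Prosbeta5R1, or not, as for Rpt3R.

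Canonical proteasome genes often start beside another gene. Another protein-coding TSS lay within 500 bp at 21 of 32 canonical genes (65.6%), on the opposite strand in every case, against 30.8% of all genes and 3 of 16 paralogs. Bound were 6 of these 21 genes (28.6%), close to the 30.5% over all protein-coding genes with such a neighbour. Of the 11 canonical genes with no neighbour 3 were bound (27.3%), against 12.7% of all such genes. At 6 of the 9 bound genes the summit lay within 500 bp of another gene's TSS, and at Prosbeta2 and Rpn5 that TSS was the nearer. A summit between divergent starts cannot be assigned to one gene by position. Rpn12, Rpn11 and Prosalpha3 were the 3 bound genes with no other start within 500 bp of the summit.

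By chromosome arm, bound canonical genes were 4 of 10 on 2R, 2 of 4 on 2L, 2 of 5 on 3L, 1 of 9 on 3R and 0 of 4 on X. Over all protein-coding genes the shares were 19.6%, 18.3%, 19.8%, 17.6% and 15.9% in that order. The X-linked genes were Prosalpha4, Rpt3, Rpt4 and Rpt6. With so few genes per arm these counts are given as positions only. A single TSS was annotated for 22 of 32 canonical genes (68.8%, against 73.5% of all genes), and none had more than 3.

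Other call rules changed which genes were counted. With the conservative list, 6 genes were bound (12.5%, background 16.5%): Rpn13 was gained, and Prosalpha3, Prosbeta5, Rpn11 and Rpn5 were lost. With every ranked region past the score of the joint list, 9 were bound (background 18.7%). With the stronger 50% of peaks, Rpn3, Rpn6 and Prosbeta5 were left, 3 of 48, against a background of 11.5%. A window of 250 bp left 8 genes, without Rpn11 (background 15.5%), and one of 1000 bp gave 10, with Prosalpha4 at 778 bp (background 21.6%). The gene just inside the window was Rpn11 at 284 bp and the one just outside was Prosalpha4. Counting overlap of the peak instead of its summit left 9 (background 19.9%). With the canonical TSS alone 8 were bound, without Rpn6 (background 15.8%), and with each summit given to its nearest TSS 7 were bound, without Prosbeta2 and Rpn5 (background 14.6%). In no setting run was a paralog bound.

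The promoters of the canonical genes, 250 bp upstream to 50 bp downstream of the canonical TSS, were searched on both strands for 9 motifs. The DRE (TATCGATA) was in 11 of 32 canonical promoters (34.4%), in 6.25% of paralog promoters, in 12.4% of the promoters of all bound genes and in 8.94% of all protein-coding promoters. The core of motif 6 (GTATNTTT) was in 34.4%, 18.8%, 17.2% and 14.6% in that order. The core of motif 1 (GGTCACAC) was in 18.8%, 0%, 9.74% and 7.52%. Motif 1, motif 6 and motif 7 (CAGCNCTA) are core promoter motifs known from genes with broad expression. The GAGA motif (GAGAG) was in 9.38% of canonical promoters, 37.5% of paralog, 35.1% of bound and 30.2% of all promoters. For the E-box (CAGCTG) these shares were 6.25%, 0%, 23.9% and 17.9%. Canonical proteasome promoters thus held the DRE and the cores of motifs 1 and 6 at larger shares, and GAGA and the E-box at smaller shares, than bound promoters in general.

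**Figure D4:**
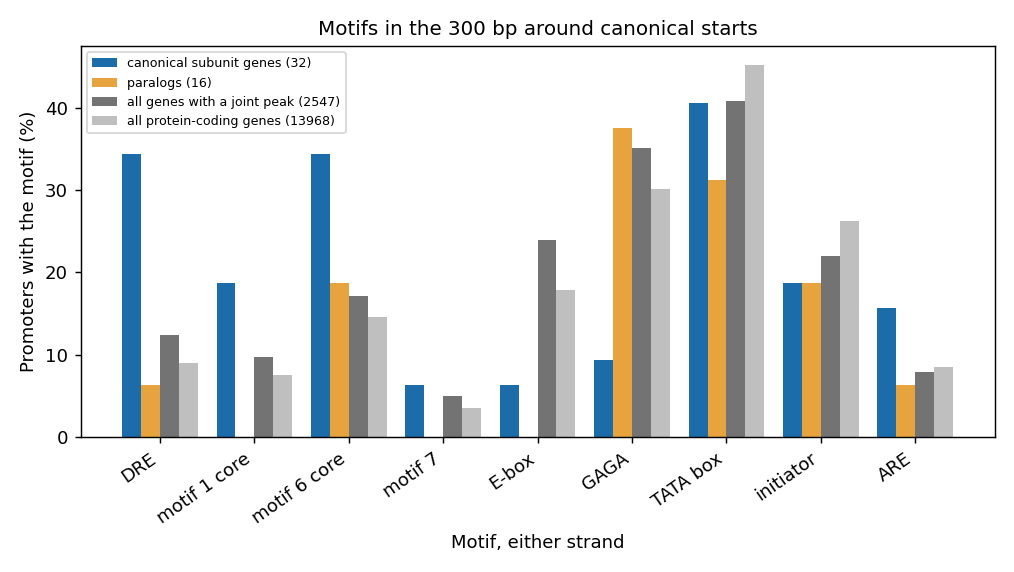
Share of 300-bp promoters with at least 1 match to each of 9 motifs on either strand (vertical axis, percent), for the 32 canonical proteasome subunit genes, the 16 paralogs, all 2547 bound genes and all 13968 protein-coding genes. The DRE stands at 34.4% in canonical promoters against 12.4% in all bound promoters, and GAGA at 9.38% against 35.1%.

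The other motifs differed less. Motif 7 was in 6.25% of canonical promoters and 3.52% of all promoters, the TATA box (TATAAA) in 40.6% and 45.3%, and the initiator (TCAGTT) in 18.8% and 26.3%. An antioxidant response element (TGACNNNGC), the kind of site that cnc and its partner maf-S are known to bind, was in 5 of 32 (15.6%) and 8.47%. It was in 0 of the 9 bound promoters and in 5 of the 23 unbound canonical promoters, those of Prosalpha2, Prosbeta3, Rpn1, Rpn7 and Rpt6. Between bound and unbound canonical promoters the counts went both ways and were not tested. The DRE was in 4 of 9 bound promoters (Rpn3, Rpn12, Prosbeta2 and Prosalpha3) and 7 of 23 unbound ones, and the core of motif 1 was in 0 of 9 and 6 of 23. The core of motif 6 was in 2 of 9 and 9 of 23. Within 50 bp of the summits at the 9 bound genes the DRE was found at none, against 3.38% of 2395 promoter summits. Rpn12 had a motif 6 core there, Prosalpha3 a GAGA motif and Rpn6 a TATA box. A match says only that these letters are present.

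Other genes of the ubiquitin-proteasome pathway were looked at as a list of 20 symbols, of which 19 matched the annotation. Of these 7 were bound (36.8%, exact interval 16.3% to 61.6%), against the background of 18.2% given above, and the interval holds that share. Pomp, an assembly chaperone of the core particle, had the highest joint signal, 171, with 102 in replicate 1 and 66.6 in replicate 2 at a joint summit 246 bp upstream. Uch-L5, a deubiquitinase that docks on Rpn13, had 150, with 82.5 and 66.1. The joint summit of Uch-L5 was at its TSS, with a TSS of Jarid2 within 500 bp. Keap1, the inhibitor of cnc, had 124, with 64.0 and 54.1. cnc had 104, with 89.6 and 55.1, at 36 bp from one of its 10 TSSs. These 4 genes were each in both replicates' lists, 4 of 19 or 21.1% (background 8.00%), which no proteasome subunit gene was.

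The other 3 bound pathway genes were less even. Uba1, the ubiquitin-activating enzyme, had 123 and was in the list of replicate 1 alone. RpS27A, which encodes ubiquitin fused to a ribosomal protein, had 104, with a TSS of Ip259 within 500 bp of the summit. TER94, the segregase known as VCP in mammals, had 91.1. RpS27A and TER94 were in neither replicate's list. Not bound were the activator gene REG, PI31, Usp14, Sem1 (a lid subunit outside the symbol rule), Ubqn, Rad23, p47, Npl4, rngo, maf-S and the polyubiquitin genes Ubi-p5E and Ubi-p63E. The median signal of the 7 bound pathway genes was 123, against 76.1 for the 9 bound proteasome subunit genes.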

How the data were processed

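The deposited files are lists of ChIP-seq regions on dm6, made by the authors from alignments of each sample and a control library, per the files that accompany them. Fragments were sheared to 200 to 800 bp by sonication, per the labels. The names of the aligner and peak caller are not given in the sources used. In each list the authors give a signal value per region in the peak caller's own unit, a whole-number score and, in the ranked lists, the −log10 of the IDR. A score of 830 or more marks an IDR of 0.01 or less, a −log10 value of 2, in the deposited ranked lists. Of the ranked regions past that score, 172 are not in the joint list. Read counts were not used and depth is unknown. The replicates are labelled biological.

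TSSs came from Ensembl release 115 (BDGP6.54) and sequences from the Release 6 assembly. Calculations used Python 3.11.15, numpy 2.4.6, pandas 2.3.3 and scipy 1.17.1 (exact Clopper-Pearson intervals), and plots matplotlib 3.10.9. The assignment of summits, the motif search and the count of repeated words were tested on simulated data. Where a gene had several summits, the highest was used. Every gene was named, with full values for those called in the joint or a replicate's list and the 3 others with the highest ranked signal. The members, lists and motifs were chosen with earlier results of these data known, and the repeated words, the chromosome arms and the 30-bp repeat were looked at later still, as was the median without Prosalpha1. Tests across samples are not possible with 1 group. Alternatives were other lists, windows, TSS sets and each replicate alone. One ranked list was not used, since its replicate columns carry no names.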

Additional observations from a re-analysis of the deposited data

How the results depend on the processing

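The count of 9 bound proteasome subunit genes stayed within 1.5 times under the conservative list, all ranked regions past the score, windows of 250 and 1000 bp, peak overlap, the canonical TSS alone and the nearest TSS alone. With the stronger 50% of peaks it was 3, with 1 core and 2 regulatory genes, and with the conservative list the core count was 2 against 4. With 1 replicate left out, the count of subunit genes ranged from 0 (without replicate 1) to 3 (without replicate 2), that of core genes from 0 to 1, that of regulatory genes from 0 to 2 and that of related pathway genes from 4 to 5, against 7. The count of paralogs was 0 in all 11 settings run. The median signal percentile of 26.3 became 38.0 with the conservative list, 33.9 with the stronger 50% of peaks, 32.9 with 250 bp, 25.0 with the canonical TSS and 39.5 with the nearest TSS. Without replicate 2 it was 60.8, beside 60.2 over all genes called there. That value covers only the 3 subunit genes left, which are those strongest in the joint list. Without replicate 1 the median has no value, since no gene was bound. A DRE lay within 100 bp of 1 of the 9 summits, that of Rpn3, against 0 within 50 bp. It is not the DRE at -197 bp in the Rpn3 promoter, since the joint summit lies 14 bp inside the gene. The stricter settings use fewer peaks or starts. The cause of these changes was not tested. No paired analysis was possible because there is 1 group. With no group without the fusion, no read depth and 2 replicates, weak peaks and absent ones cannot be told apart here.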
